A study of Mus musculus with 12 samples.

Results

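Immediate early genes are switched on within minutes of neuronal firing, growth factors or stress, without new protein synthesis, and their RNAs are short-lived. In neurons, calcium entry and the MAP kinase pathway act on factors already bound at their promoters, among them CREB, which binds the cyclic AMP response element (CRE), and serum response factor, which binds the CArG box. In the hippocampus they mark recently active cells and are used as a readout of activity. The 10 genes described here were chosen by name: the AP-1 transcription factor subunits Fos, Fosb and Junb, the zinc finger transcription factors Egr1, Egr2 and Egr4, the neuronal factor Npas4, the orphan nuclear receptor Nr4a1, the synaptic protein gene Arc and the MAP kinase phosphatase gene Dusp1. They are 10 of the 33250 gene symbols measured, and all 10 were among the 19325 that passed the filter on low counts.

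The hippocampus of 12 male mice was sequenced as bulk tissue from polyA RNA, 1 library per animal, from 6 conditional knockouts (cKO) and 6 wild-type (WT) animals. In cKO mice the miR379-410 microRNA cluster was removed by Cre expressed in Emx1-positive cells, which in the hippocampus are chiefly glutamatergic neurons. Cells in which Cre did not act keep the locus, and these libraries do not show which cells those are. The study asked whether gene expression in the tissue differs without the cluster. Age, handling before tissue collection, time of day and whether WT animals carried floxed alleles or Cre are not stated in the labels. In bulk tissue, fewer cells that express a gene cannot be told apart from less RNA per cell.

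Libraries held 42360558 to 51095758 counts. Markers of dentate granule cells summed to 281 to 446 CPM in cKO and 376 to 455 CPM in WT (a gene's count relative to its library's total, scaled by TMM), those of CA1 pyramidal cells to 537 to 610 CPM in cKO and 577 to 634 CPM in WT, and those of CA3 pyramidal cells to 489 to 537 CPM in cKO and 513 to 571 CPM in WT, so hippocampal cell markers were present in each library. The non-coding RNA B830012L14Rik, just upstream of the cluster, was at 17.4 to 25.8 CPM in cKO 2 to 6 and at 0.788 CPM in the library labelled cKO 1, against 0.310 to 0.865 CPM in WT. That library also stood with WT at Emx1, with 9.14 CPM, while cKO 2 to 6 read 5.91 to 6.84 CPM and WT 8.38 to 9.60 CPM. Mirg, a non-coding RNA that overlaps the cluster, was at 34.1 ± 7.31 CPM in cKO and 30.7 ± 2.39 CPM in WT (SD, n = 6 each). Without that library, Mirg was at 36.2 ± 5.80 CPM in the other 5 cKO animals. Comparisons between genotypes include it unless it is said to be left out. Ttr, a choroid plexus gene, was at 28.3 to 5078 CPM in cKO and 49.8 to 7657 CPM in WT, with cKO 4, WT 2 and WT 3 near the low end.

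Promoter sequence upstream of the start was available in the RefSeq table for 8 of the 10 genes, not for Arc and Egr1. In the 250 bases before each listed start, read on both strands, all 8 genes held the CRE core TGACG or its reverse complement CGTCA before at least 1 start, against 17.8% of 32851 promoter windows of the same length. The full CRE, TGACGTCA, was found for 1 of 8 genes (Dusp1) and in 1.55% of windows. It contains the core on each strand, so the 2 matches overlap there. A CArG box in its strict form (CCWWWWWWGG, with W for A or T) was found for 1 of 8 genes (Egr2) and in 1.47% of windows. CArG boxes with a mismatch, or farther upstream than 250 bases, were not searched for. A TATA box (TATAAA or TATATA) was found for 3 of 8 (Egr4, Fos and Npas4) and in 11.5% of windows. For the TATA box, only the gene's own strand was searched. The AP-1 letters TGANTCA were in 6.75% of windows and in none of the 8 genes' windows. These matches are letters in a window and were not tested as binding sites. Of Egr2's 5 listed starts, the one printed holds both CRE cores and the CArG box. The windows from 67537620 and 67537680, which overlap it, hold them too. A gene with several listed starts had several windows in which to match, while the background shares are per window. The 5 windows printed (RefSeq, GRCm38.p6) are those of Fos and Nr4a1, the pair with the highest correlation, of the neuronal factor Npas4, and of Egr2 and Dusp1, which hold the CArG box and the full CRE. Each is written 5′ to 3′ along the gene, with the CRE core, full CRE and CArG box in capitals.
Fos (chr12:85473640-85473889, plus strand): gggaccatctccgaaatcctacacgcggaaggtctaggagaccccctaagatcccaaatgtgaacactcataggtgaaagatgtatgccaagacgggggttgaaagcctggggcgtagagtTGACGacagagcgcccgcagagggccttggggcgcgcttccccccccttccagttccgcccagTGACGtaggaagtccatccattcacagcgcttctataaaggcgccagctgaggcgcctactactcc
Nr4a1 (chr15:101266596-101266845, plus strand): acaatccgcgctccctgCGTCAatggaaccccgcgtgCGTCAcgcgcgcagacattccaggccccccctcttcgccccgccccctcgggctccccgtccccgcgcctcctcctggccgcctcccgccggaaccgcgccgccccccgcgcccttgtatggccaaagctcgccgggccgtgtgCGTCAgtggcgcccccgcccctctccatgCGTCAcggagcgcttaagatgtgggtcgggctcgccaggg
Npas4 (chr19:4989972-4990221, minus strand): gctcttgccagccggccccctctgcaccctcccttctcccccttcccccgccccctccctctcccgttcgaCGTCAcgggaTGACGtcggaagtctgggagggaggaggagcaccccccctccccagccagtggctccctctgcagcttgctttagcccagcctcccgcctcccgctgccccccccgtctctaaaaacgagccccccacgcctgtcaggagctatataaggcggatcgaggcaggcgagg
Egr2 (chr10:67537619-67537868, plus strand): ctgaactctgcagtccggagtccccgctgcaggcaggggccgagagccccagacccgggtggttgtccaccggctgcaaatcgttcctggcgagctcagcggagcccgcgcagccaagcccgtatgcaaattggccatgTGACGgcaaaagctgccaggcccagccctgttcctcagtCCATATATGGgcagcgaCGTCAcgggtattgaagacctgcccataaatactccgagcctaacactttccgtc
Dusp1 (chr17:26508473-26508722, minus strand): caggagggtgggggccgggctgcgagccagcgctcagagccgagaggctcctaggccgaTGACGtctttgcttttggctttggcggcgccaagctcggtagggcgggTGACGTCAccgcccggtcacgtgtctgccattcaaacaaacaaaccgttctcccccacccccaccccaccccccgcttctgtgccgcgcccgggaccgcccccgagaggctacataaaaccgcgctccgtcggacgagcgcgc

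In Fos the cores begin 129 and 66 bases before the start. In Nr4a1 they begin 233, 213, 69 and 40 bases before it, the most of the 5 windows shown. In Npas4 they begin 179 and 169 bases before the start, 10 bases apart, and in Dusp1 the full CRE begins 143 bases before it. Egr2 has cores at 111 and 55 bases with the CArG box between them at 72 bases.

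**Figure D1:**
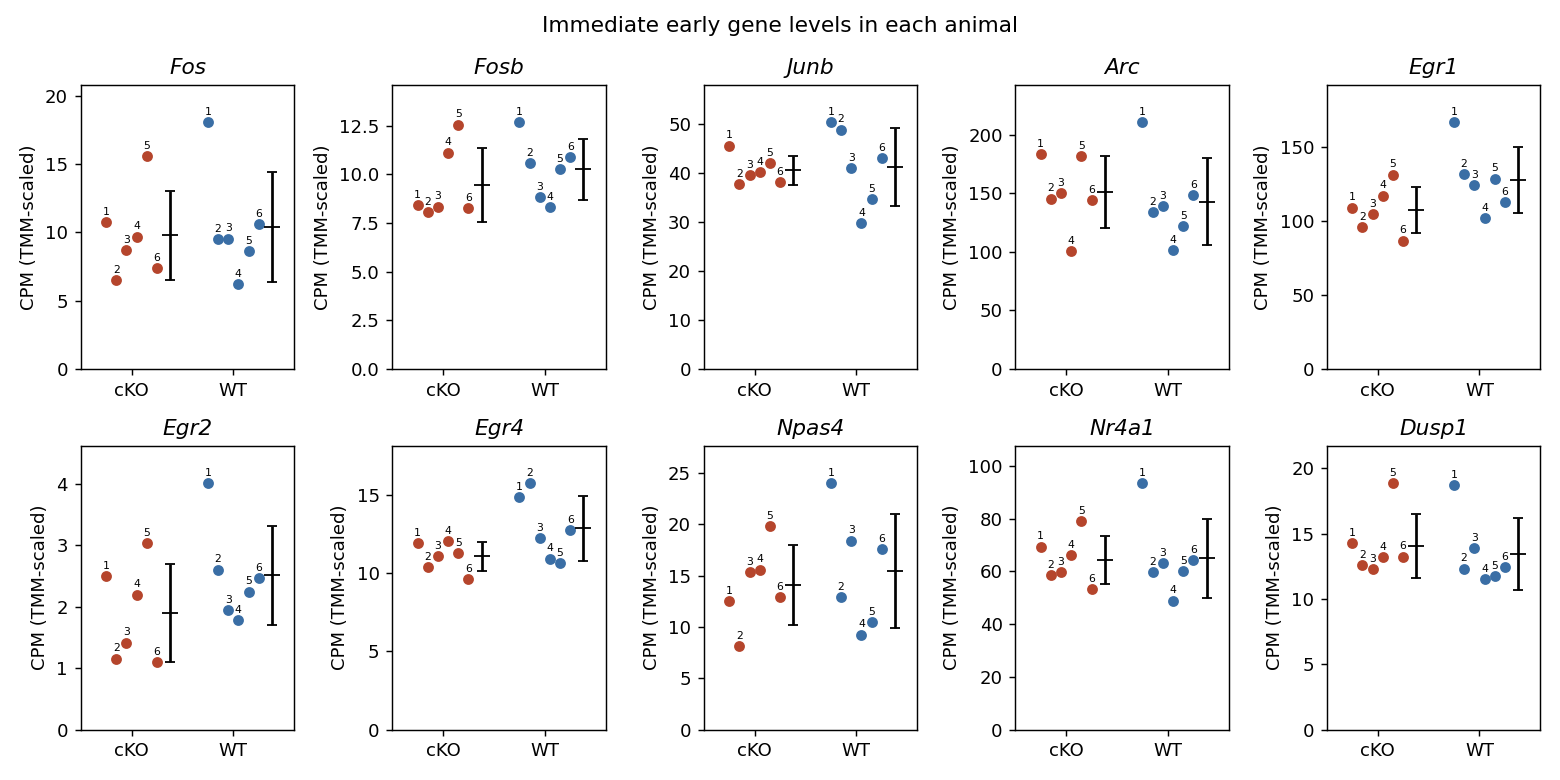
Level of each immediate early gene in CPM (TMM-scaled) in 6 cKO animals (left, red) and 6 WT animals (right, blue), with the animal number above each point, and the mean and SD of the group in black. The ranges of the genotypes overlap for all 10 genes, and WT 1 is the highest animal for 8 of them.

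Per kilobase of merged exon, a scale on which genes can be compared, Arc was the most abundant of the 10 genes and Egr2 the least. Over the 12 animals Arc averaged 48.0 ± 10.7 CPM per kb (SD), Egr1 26.2 ± 4.71, Nr4a1 18.4 ± 3.38 and Junb 17.8 ± 2.50 CPM per kb. A lower tier held Egr4 at 5.56 ± 0.835, Fos at 4.29 ± 1.49, Dusp1 at 4.16 ± 0.753 and Npas4 at 3.57 ± 1.12 CPM per kb. Fosb, at 1.58 ± 0.275 CPM per kb, and Egr2, at 0.648 ± 0.243 CPM per kb, came last. Neighbours in this order lay closer than the spread of the animals between Nr4a1 and Junb and from Egr4 to Npas4. The length used bears on the order: per kilobase of the longest protein-coding transcript, an alternative chosen after the data were seen, Dusp1 moved from rank 7 to rank 5 at 6.91 CPM per kb, and Nr4a1, at 25.3 CPM per kb, came close to Egr1 at 26.2 CPM per kb.

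None of the 10 genes differed between cKO and WT past an adjusted p of 0.05 by edgeR's quasi-likelihood test with Benjamini-Hochberg adjustment over all genes. The background was 0.0103% of all genes tested, 2 of 19325, both higher in cKO. DESeq2 and limma-voom also called none of the 10. At an unadjusted p under 0.05, Egr1 and Egr4 passed, both lower in cKO, against a background of 9.54% of genes, 6.34% lower and 3.2% higher in cKO. For all 10 genes the ranges of cKO and WT animals overlapped, and 0.404% of all genes had ranges that did not. Of the 10 log2 fold changes 2 were above 0, against 53.4% of all genes, and their median was -0.106, against 0.00721 over all genes tested. The median moved with single animals: it was 0.0311 without WT 1, with 6 of the 10 above 0, -0.0208 without cKO 2 and -0.0610 without cKO 6, and it was -0.224 without cKO 5 and -0.197 without WT 4. Without the library labelled cKO 1 the median was -0.104, again with none called.

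Of the AP-1 genes, Fos encodes the subunit most used as an activity marker (chromosome 12, 85473890 to 85477273, GRCm38, plus strand). It had a lowest, median and highest level of 6.48, 9.21 and 15.6 CPM in cKO and 6.21, 9.52 and 18.1 CPM in WT. The highest animals, cKO 5 and WT 1, stood apart from the other 10, which reached 10.8 CPM at most. The log2 fold change, cKO over WT, was -0.09 ± 0.25 (SE), with a 95% confidence interval of -0.62 to 0.43 and an edgeR adjusted p of 0.938. The interval covers a change of 0.4 in either direction, and the sign turned without WT 1, to 0.13. 

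Fosb encodes a partner of Jun proteins whose truncated splice form accumulates with repeated stimulation; splice forms are not separated in counts per gene. Its levels (chromosome 7, 19302696 to 19310051, minus strand) were 8.08, 8.38 and 12.6 CPM in cKO and 8.30, 10.4 and 12.7 CPM in WT, as lowest, median and highest. Below the WT median lay 4 of 6 cKO animals, with cKO 4 and cKO 5 above it. Its log2 fold change was -0.12 ± 0.13 (edgeR adjusted p = 0.831).

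Junb encodes a Jun-family subunit that often restrains c-Jun. Its levels (chromosome 8, 84974484 to 84978718, minus strand) were 37.8, 39.9 and 45.6 CPM in cKO and 29.8, 42 and 50.4 CPM in WT. The WT animals spread over a wider range on both sides of the cKO animals. Its log2 fold change was -0.03 ± 0.11 (edgeR adjusted p = 0.964), and it was 0.03 without WT 1 and 0.02 without WT 2. The annotated span of Junb overlaps that of Prdx2, on the opposite strand, by 351 bases, and shared exon bases were not counted. No label states the strand setting of the quantification, so any reads of that stretch cannot be assigned.

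The 3 Egr genes, which bind GC-rich sites in the promoters of synaptic and later-response genes, had the most negative log2 fold changes of the 10. A further family member, Egr3, is not among the 10. Its log2 fold change was nearer to 0, at -0.11 ± 0.07 (edgeR unadjusted p = 0.147). Egr1 (chromosome 18, 34859823 to 34864984, plus strand), required for late phases of hippocampal plasticity in mice, had 86.6, 107 and 131 CPM in cKO and 102, 126 and 167 CPM in WT as lowest, median and highest. Below the WT median lay 5 of 6 cKO animals, cKO 5 being the exception. For Egr1 the log2 fold change was -0.25 ± 0.12 with an unadjusted p of 0.0484 and an edgeR adjusted p of 0.520. It ranged from -0.32 to -0.17 when single animals were left out.

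Egr4 (chromosome 6, 85511121 to 85513589, minus strand), a family member expressed mainly in neurons, had 9.61, 11.2 and 12.02 CPM in cKO and 10.6, 12.5 and 15.8 CPM in WT. All 6 cKO animals lay below the WT median, and WT 4 and WT 5 lay among them. For Egr4 the log2 fold change was -0.22 ± 0.10 with an unadjusted p of 0.0457 and an edgeR adjusted p of 0.520. Both unadjusted p-values lay near the threshold and crossed it often. Over 23 alternatives Egr1 was under 0.05 in 10, with a range of 0.0143 to 0.115, and Egr4 in 11, with a range of 0.0155 to 0.120. Without the library labelled cKO 1, Egr1 had an unadjusted p of 0.0568 and Egr4 of 0.0371. Neither was under 0.05 without WT 1, WT 2, cKO 2, cKO 3 or cKO 6, with library totals alone or with limma-voom.

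Egr2 (chromosome 10, 67535475 to 67542188, plus strand), also known as Krox20, was the least counted of the 10 genes, with 52 to 197 counts per library. Its levels were 1.10, 1.81 and 3.03 CPM in cKO and 1.78, 2.36 and 4.01 CPM in WT. The 3 lowest animals, cKO 2, cKO 3 and cKO 6, at 1.10 to 1.41 CPM, lay below every WT animal, and cKO 1, cKO 4 and cKO 5 lay among WT. For Egr2 the log2 fold change was -0.41 ± 0.27, with an interval of -0.98 to 0.17 and an edgeR adjusted p of 0.678, and it was -0.51 without the library labelled cKO 1.

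Npas4, a neuron-specific bHLH-PAS factor induced by calcium entry (chromosome 19, 4984355 to 4990316, minus strand), had 8.17, 14.1 and 19.8 CPM in cKO and 9.25, 15.2 and 24.0 CPM in WT. The lowest animal was cKO 2 and the highest WT 1, 2.94-fold apart. Npas4's log2 fold change was -0.13 ± 0.24 (edgeR adjusted p = 0.907), and 0.03 without WT 1.

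Nr4a1, also called Nur77 (chromosome 15, 101254269 to 101274795, plus strand), had 53.3, 63.0 and 79.0 CPM in cKO and 48.9, 61.6 and 93.6 CPM in WT. WT 1 held the highest value and WT 4 the lowest. The log2 fold change was -0.01 ± 0.13, with an interval of -0.30 to 0.27 and an edgeR adjusted p of 0.985.

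Arc, whose RNA is carried to dendrites and whose protein promotes the removal of AMPA receptors (chromosome 15, 74669083 to 74672570, minus strand), had 100.5, 148 and 183 CPM in cKO and 101, 137 and 211 CPM in WT. cKO 4 and WT 4 were lowest, and only 1 of 6 cKO animals lay below the WT median. The log2 fold change was 0.08 ± 0.17 (edgeR adjusted p = 0.917), 0.01 without the library labelled cKO 1 and -0.01 without WT 4.

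Dusp1 encodes MKP-1, which switches off the MAP kinases that induce these genes (chromosome 17, 26505590 to 26562128, minus strand). It had 12.3, 13.2 and 18.9 CPM in cKO and 11.5, 12.4 and 18.7 CPM in WT. In each genotype 1 animal, cKO 5 and WT 1, stood above the rest, which lay between 11.5 and 14.3 CPM. The log2 fold change was 0.07 ± 0.13 (edgeR adjusted p = 0.916), and -0.04 without cKO 5. Its annotated span overlaps those of Ergic1 (640 bases) and the pseudogene Gm8225 (956 bases) on the opposite strand. On its own strand it overlaps the sense-intronic transcript AC122252.1 (1853 bases) and the processed pseudogene AC122252.4 (227 bases). These are overlaps of whole gene spans, and shared exon bases were not counted.

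**Figure D2:**
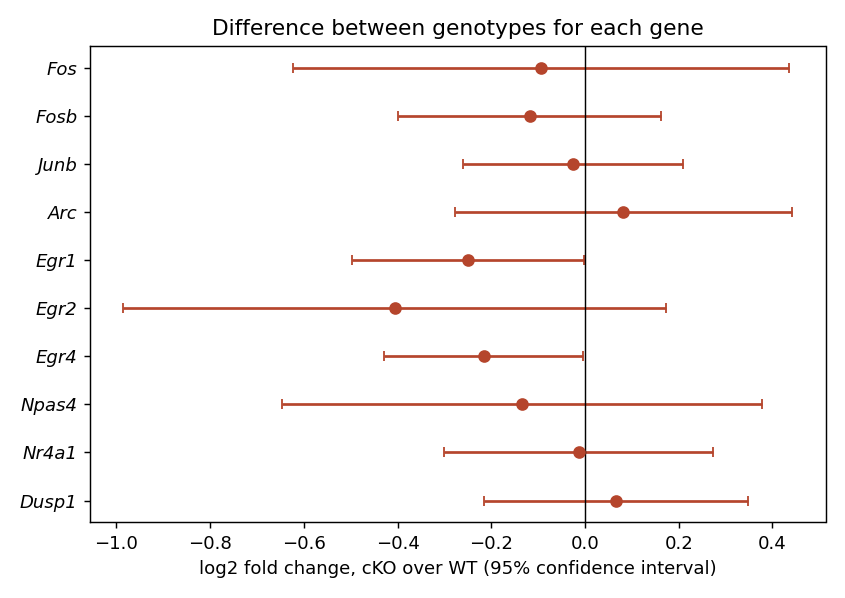
Log2 fold change of each gene, cKO over WT, from edgeR (points) with its 95% confidence interval (bars) and a line at 0. Intervals of 8 genes include 0, and those of Egr1 and Egr4 end just below it, before adjustment over all genes.

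For 8 of the 10 genes, all but Egr1 and Egr4, the SD between animals of a genotype was larger than the log2 difference between genotypes. Within genotype, the SD of log2 CPM was 0.514 for Egr2, 0.480 for Npas4 and 0.473 for Fos. These are at percentiles 93.1, 91.7 and 91.3 among all genes tested. Arc, with an SD of 0.334, was at percentile 81.3, and Egr4, with 0.184, was lowest of the 10 at percentile 61.0. Between the highest and lowest of the 12 animals the level differed 3.66-fold for Egr2, 2.94-fold for Npas4, 2.91-fold for Fos and 2.10-fold for Arc.

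The same animals were high or low across the genes. On a mean z-score over the 10 genes, which puts each gene on the scale of its own SD over the 12 animals, cKO 5 stood at 1.01 and WT 1 at 1.81. WT 1 was among the 2 highest animals for all 10 genes and cKO 5 for 6. At the low end were cKO 2 at -0.90, cKO 6 at -0.84 and WT 4 at -1.15. WT 4 was the lowest WT animal for 9 of 10 genes, and cKO 5 the highest cKO animal for 7. High and low animals thus occurred in both genotypes, and the library labelled cKO 1 stood at 0.20, among the middle animals.

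**Figure D3:**
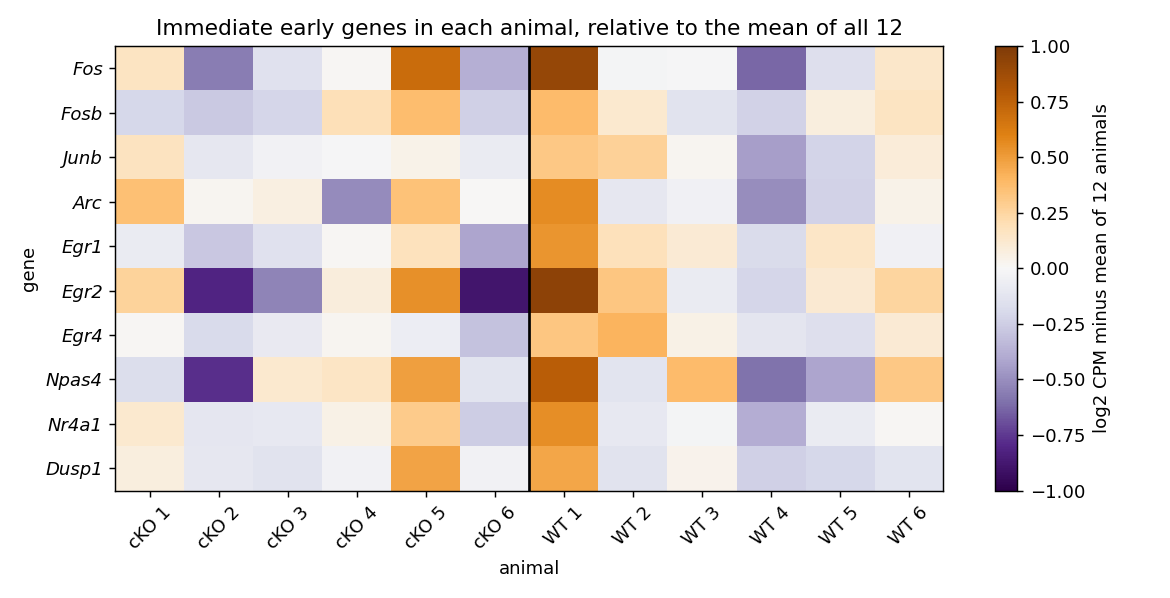
Log2 CPM of each gene (rows) in each animal (columns, cKO left of the line and WT right of it) minus its mean over the 12 animals. The columns of cKO 5 and WT 1 are orange for nearly every gene, and those of cKO 2, cKO 6 and WT 4 purple for most.

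All 45 pairs of the 10 genes had a Pearson r above 0 in log2 CPM over the 12 animals, with a median of 0.705 and a range of 0.265 to 0.953. A two-sided permutation test with 100000 resamples, adjusted over the 45 pairs, was passed by 29 pairs, and with Spearman's rho by 24. The share of all gene pairs that would pass this test was not computed. As a description of these libraries, the median r over all 120815740 pairs of the 15545 genes of at least 1 CPM was near 0, and 2.21% of those pairs reached 0.705. Centring each gene on its genotype mean gave 35 pairs past the threshold, with a median r of 0.728.

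Within genotypes the signs stayed similar with fewer pairs past the threshold. Within the 6 cKO animals the median r was 0.715, with 43 of 45 above 0, and no pair passed in exact permutation tests over 720 pairings (12 had an unadjusted p under 0.05). Within the 6 WT animals it was 0.841, all 45 were above 0, and 9 passed. The smallest p that 6 animals allow is 0.00139. With single animals left out, 9 pairs passed without WT 1 and 19 without WT 4, against 25 to 36 without any other, among them 28 without cKO 5 and 31 without cKO 6. Leaving out the 2 animals farthest from the median of each pair's first gene left none past the threshold (14 with an unadjusted p under 0.05), with a median r of 0.536 and 43 of 45 above 0. The calls therefore rest on those animals, while leaving out extremes also narrows the range and lowers r. Without cKO 4, WT 2 and WT 3, the animals low in Ttr, 31 pairs passed, and without the library labelled cKO 1, 28.

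**Figure D4:**
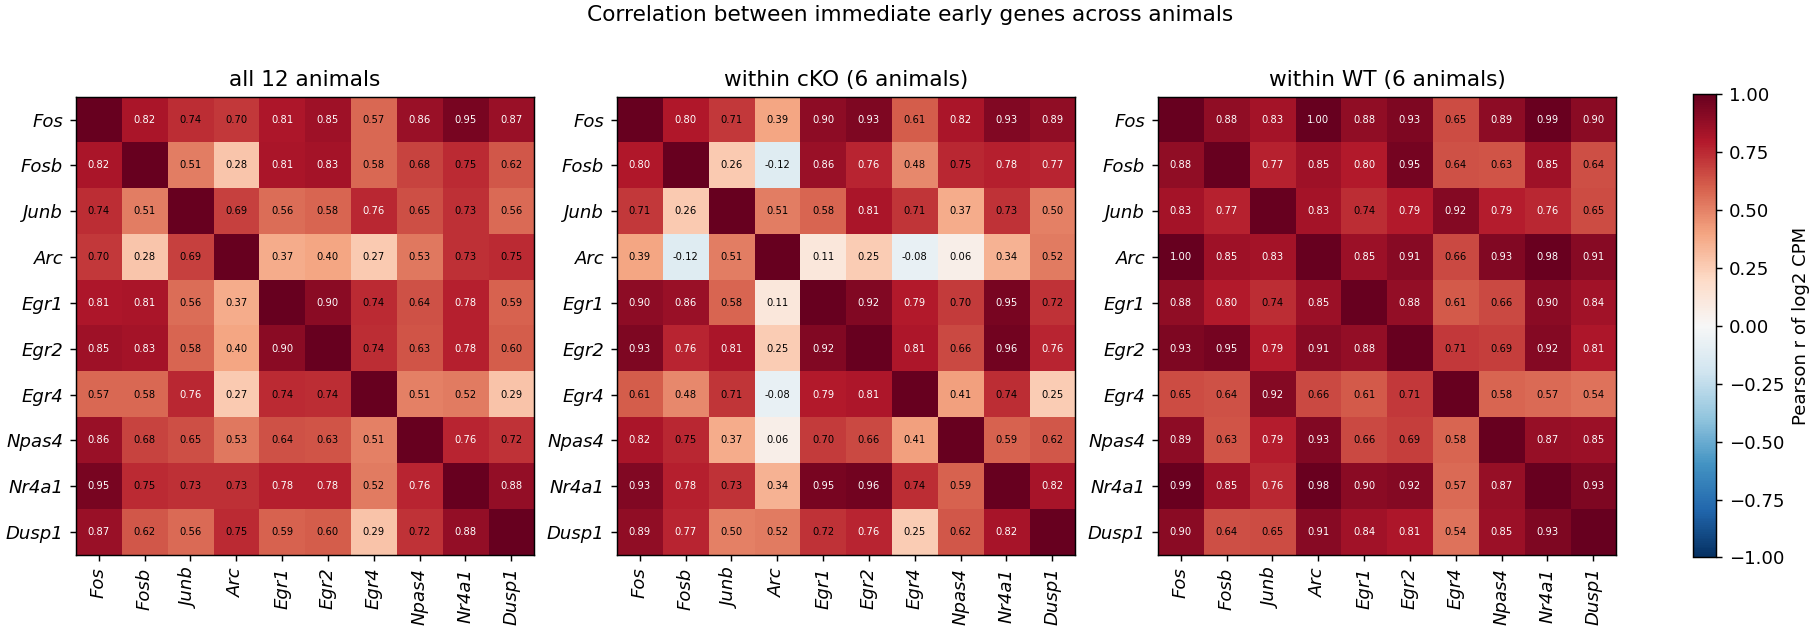
Pearson r of log2 CPM between each pair of genes over all 12 animals, within 6 cKO animals and within 6 WT animals, on a colour scale from -1 (blue) to 1 (red). The row of Arc is paler than the others in the cKO panel and as dark as the others in the WT panel.

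Fos and Nr4a1 were the closest pair, with an r of 0.953 (permutation p = 2e-05, adjusted p = 0.0009) and a rho of 0.958 (permutation adjusted p = 0.0009). Their r was 0.927 within cKO and 0.991 within WT. Without the 2 farthest animals, cKO 5 and WT 1, it was 0.864 (permutation adjusted p = 0.0585). Fos and Nr4a1 each passed with 8 of 9 other genes, the most of the 10.

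Within the Egr family, Egr1 and Egr2 followed each other with an r of 0.9 (rho 0.867, permutation adjusted p = 0.00135), at 0.924 within cKO and 0.880 within WT. Without the 2 farthest animals r was 0.783 (permutation adjusted p = 0.0587). Egr4 was nearest to Junb (r 0.755, rho 0.846, permutation adjusted p = 0.0142) and to Egr1 (0.744) and Egr2 (0.737), and passed with 3 of 9 genes, the fewest. Npas4 was nearest to Fos (r 0.860, rho 0.783, permutation adjusted p = 0.00392), and Dusp1 was nearest to Nr4a1 (r 0.876, rho 0.706, permutation adjusted p = 0.00392).

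Arc was the least tied of the 10, with a median r of 0.530 to the other 9 genes. With Fos its r was 0.705 (rho 0.608, permutation adjusted p = 0.0193), at 0.394 within cKO and 0.996 within WT. With Fosb it was 0.279 (rho 0.196, permutation adjusted p = 0.386), at -0.121 within cKO and 0.850 within WT. The difference between genotypes in these correlations was not tested. cKO 4 stands out in these pairs: its Arc level of 100.5 CPM was the lowest of the 12, while its Fosb level of 11.1 CPM and its Fos level of 9.69 CPM were above the cKO medians. cKO 4 was also the animal with the lowest Ttr. The library labelled cKO 1 had the highest Arc of the cKO animals, 183.5 CPM, with Fosb at 8.42 CPM. Correlations within cKO were not computed without it.

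**Figure D5:**
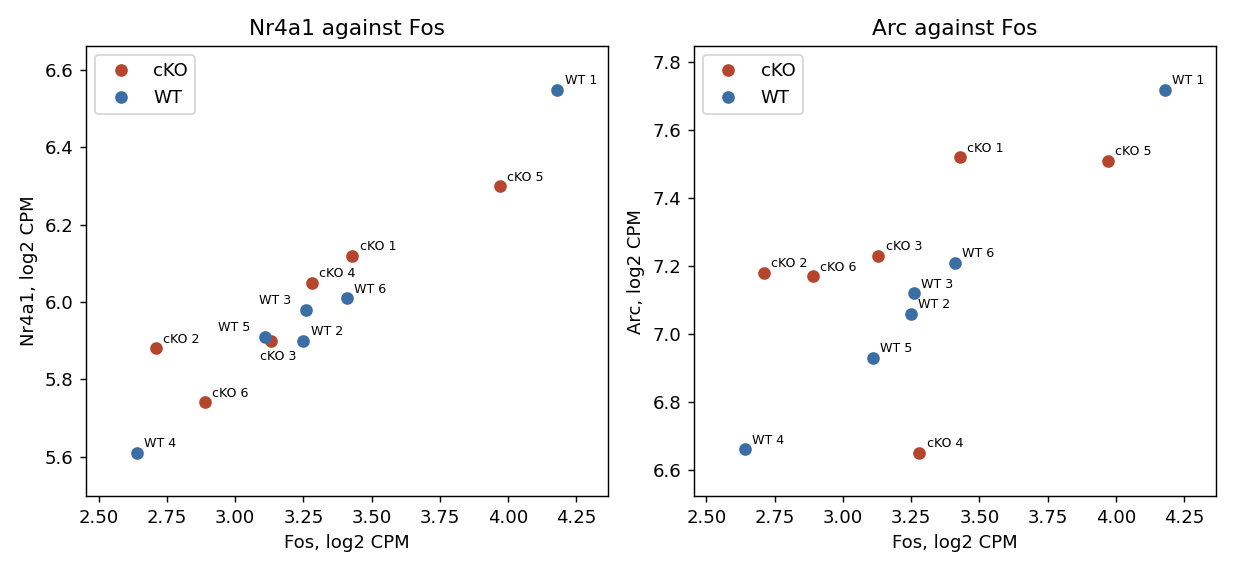
Log2 CPM of Nr4a1 (left) and Arc (right) against Fos in each animal, cKO red and WT blue. Nr4a1 follows Fos in all 12 animals, and Arc follows it in WT, while cKO 4 lies below the other animals of similar Fos level.

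The genes most like the 10, by Pearson r with their mean z-score over the 12 animals among genes of at least 1 CPM, were 1700016P03Rik and Ier2. The r is a description, with no test. The non-coding RNA 1700016P03Rik (r 0.894, rho 0.874) had 3.27 CPM in cKO 5 and 3.36 CPM in WT 1, against 1.11 to 1.92 CPM in the other 10 animals. It was at r 0.902 within cKO and 0.909 within WT. The gene lies on chromosome 11 from 75172560 to 75177633 (plus strand) and holds the annotated Mir212 and Mir132 in its span. These libraries are of polyA RNA and hold no measure of mature miRNAs. The mature sequences (within chr11:75173403-75173744, plus strand, RefSeq, GRCm38.p6) are shown because both 3p forms share a seed, bases 2 to 8, in capitals.
mmu-miR-132-3p: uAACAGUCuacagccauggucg
mmu-miR-212-3p: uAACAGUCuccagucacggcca
mmu-miR-132-5p: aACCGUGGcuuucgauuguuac
mmu-miR-212-5p: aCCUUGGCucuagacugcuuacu

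Ier2, another immediate early gene (r 0.892, rho 0.727), had 4.86 CPM in cKO 5 and 5.52 CPM in WT 1, against 3.66 to 4.48 CPM in the other 10 animals. The next were Bcl7b (0.829), Ddah2 (0.810), Pheta1 (0.799), Cthrc1, Zbtb40 and Gtpbp1 (0.792 each), Timm21 (0.784) and Lmo2 (0.783). Most of these differed little between animals, with Bcl7b between 35.6 and 41.0 CPM in all 12. The most opposite were Fas, a death receptor gene (-0.837), Gm12655 (-0.814), Mnat1 (-0.810), Wdr66 (-0.802) and Smyd4 (-0.800). Without cKO 5 and WT 1 the r was 0.726 for 1700016P03Rik, 0.649 for Ier2 and -0.871 for Fas.

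Of 31 other rapid primary response genes of at least 1 CPM, 6 (19.4%) had an r of at least 0.5 with the mean z-score, against 401 of 15535 other genes (2.58%). They were Ier2, the ERK phosphatase gene Dusp6 (r 0.783), the antiproliferative gene Btg2 (0.775), the kinase gene Plk2 (0.568), Csrnp1 (0.559) and Ier5 (0.530), named after their values were seen. Dusp6 had 50.1 CPM in cKO 5 and 62.9 CPM in WT 1, against 43.0 to 58.8 CPM in the others. Jun, the usual partner of Fos, was at -0.53, and at 0.0816 without cKO 5 and WT 1. Without those animals the share was 3 of 31 (9.68%), against 3.05% of other genes. The 3 were Ier2 (0.649), Dusp6 (0.733) and Nr4a3 (0.641, against 0.0708 with all 12), while Btg2 was at 0.497, Csrnp1 at 0.333, Plk2 at 0.274 and Ier5 at 0.253. Among partners and brakes of the 10, the MAP kinase inhibitors Spry4 (0.657) and Spry2 (0.652) also reached 0.5, as did Dusp6. Without cKO 5 and WT 1, Spry4 was at 0.553 and Spry2 at 0.286, and Nab2 reached 0.501. With all 12 animals, Rgs2 (0.519) was the only one of 12 late response genes to reach 0.5, and none of 28 upstream signalling genes did. These also turned on cKO 5 and WT 1: without them Rgs2 was at -0.0991, and the upstream genes Cacna1d (0.546), Crtc1 (0.540) and Mef2d (0.528) reached 0.5.

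Between genotypes, none of the related genes passed the edgeR adjusted threshold, so their counts are by direction and at an unadjusted p under 0.05, against a background of 3.2% higher and 6.34% lower. Of 33 other rapid genes 21 were higher and 12 lower in cKO, with a median log2 fold change of 0.0574. At the unadjusted threshold were 5 higher and 2 lower. The smallest p belonged to the ERK phosphatase gene Dusp5 at 0.29 ± 0.07 (adjusted p = 0.316), with 20.5 ± 1.33 CPM in cKO and 16.8 ± 1.89 CPM in WT. Mcl1 was at 0.13 ± 0.04, the kinase gene Sik1 at 0.35 ± 0.14 and Homer1, a postsynaptic scaffold gene, at -0.18 ± 0.07. Of 12 late response genes 8 were higher and 4 lower (median 0.0391), none at the unadjusted threshold, with Rasgrp1 at -0.10 ± 0.05, Rgs2 at 0.12 ± 0.07, Nrn1 at -0.06 ± 0.04 and Vgf at 0.09 ± 0.08.

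Of 28 upstream signalling and transcription factor genes 5 were higher and 23 lower in cKO, with a median of -0.0467, and 1 higher and 5 lower at the unadjusted threshold. Camk4, a kinase that phosphorylates CREB, had the smallest p at -0.41 ± 0.10 (edgeR adjusted p = 0.326), with 19.8 ± 1.43 CPM in cKO and 26.4 ± 4.71 CPM in WT. Mkl2, a cofactor of serum response factor, was at -0.12 ± 0.04, Crem, a CREB-family gene, at -0.18 ± 0.05 and Mef2a at -0.10 ± 0.04. Of 14 partners and brakes 9 were higher and 5 lower (median 0.00716), with 2 lower at the unadjusted threshold, among them Dusp6 at -0.18 ± 0.08. Fosl2 (0.11 ± 0.09) and Nab2 (0.07 ± 0.06) were next.

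Genes that glucocorticoids or heat shock induce lay mostly higher in cKO, without passing the edgeR adjusted threshold. All 11 glucocorticoid response genes were higher, with a median of 0.157 and 4 at the unadjusted threshold: Errfi1 (0.15 ± 0.05), Plin4 (0.55 ± 0.18), Map3k6 (0.34 ± 0.11) and Sult1a1 (0.25 ± 0.10). Of 7 heat shock genes 6 were higher, with a median of 0.0913 and 2 at the threshold, Dnajb1 (0.23 ± 0.08) and Hspa1a (0.30 ± 0.13), and Hspb1 (0.34 ± 0.20) and Hspa1b (0.09 ± 0.17) next. Across animals their summed CPM had an r of -0.317 (glucocorticoid) and -0.0975 (heat shock) with the 10 genes' mean z-score, and without cKO 5 and WT 1 the r was -0.561 for glucocorticoid and -0.139 for heat shock genes. Without the library labelled cKO 1, upstream genes were 4 higher and 24 lower (median -0.0628), other rapid genes 21 and 12 (0.0116), late genes 8 and 4 (0.0501), and partners and brakes 8 and 6 (0.00463). Glucocorticoid genes were then 11 higher and 0 lower (0.184), heat shock genes 6 and 1 (0.0491), and no listed gene passed. All genes tested without that library were 9865 higher and 9592 lower (0.00157). The part of the glucocorticoid and heat shock genes in the results was not tested.

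Other cell types' markers also differed by direction, against a background of 53.4% of all genes higher in cKO, and of 3.2% higher and 6.34% lower at the unadjusted threshold. All 7 smooth muscle and pericyte markers were higher, with a median log2 fold change of 0.842 and 6 at the unadjusted threshold, and they summed to 213 to 272 CPM in cKO and 168 to 205 CPM in WT. All 7 choroid plexus markers were higher (median 0.352), as were 6 of 6 meningeal fibroblast markers (0.361), 6 of 6 endothelial (0.109), 6 of 6 interneuron (0.0386) and 4 of 4 striatum (0.199) markers. All 6 dentate granule markers were lower (-0.171), as were 5 of 5 oligodendrocyte (-0.0997) and 4 of 4 neocortex (-0.108) markers. The rest were mixed: 1 of 5 CA1 (-0.0426), 2 of 5 CA3 (-0.0591), 3 of 5 astrocyte (0.041), 1 of 5 microglia (-0.0249) and 3 of 4 thalamus (0.0256) markers were higher. None passed the edgeR adjusted threshold, and all listed markers passed the filter on low counts. Without the library labelled cKO 1, smooth muscle markers were again all higher (median 0.886, 5 at the unadjusted threshold), and dentate markers all lower (-0.231, 3 at the threshold). All 5 CA1 and all 5 CA3 markers were then lower. Over all 19457 genes tested without that library, 9865 were higher and 9592 lower in cKO. At the unadjusted threshold, 637 of them were higher and 1744 lower.

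Across animals, the summed CPM of CA1 markers had the highest r of the 14 marker sums with the 10 genes' mean z-score, at 0.689 (rho 0.720). Without cKO 5 and WT 1 it was 0.530, and the CA3 sum, at 0.172 with all 12 animals, was 0.542. Single markers differed from the sums. With all 12 animals the CA1 marker Fibcd1 was at -0.228, and the other CA1 markers at 0.408 to 0.513. Of CA3 markers Dkk3, the largest at a mean of 384 CPM, was at 0.466, and the others at -0.635 to -0.177. Without cKO 5 and WT 1, Wfs1 was at 0.0146 and the other CA1 markers at 0.199 to 0.507. Dkk3 was then at 0.446 and the other CA3 markers at -0.0216 to 0.290. CA1 markers summed to 610 CPM in cKO 5 and 634 CPM in WT 1, and CA3 markers to 519 and 513 CPM. The smooth muscle sum had an r of 0.0719 (0.0154 without those animals), the choroid plexus sum 0.0264 (-0.445), the dentate sum -0.140 (0.0472) and the interneuron sum -0.410 (-0.248). The library total had an r of -0.333 (-0.505) and the share of mitochondrial counts 0.425, or 0.0368 without cKO 5 and WT 1. These are descriptions over 12 animals, and their part in the shared variation was not tested.

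The deleted cluster encodes miRNAs, and matches to their seeds were counted in the longest annotated 3′ UTR of each gene. Among 71 mature miRNAs with 64 different seed sites, 8 of the 10 genes had at least 1 match, against 89.3% of 15274 genes. Only the 5p form of miR-376c, miR-487b and miR-539, and only the 3p form of miR-485, were among those searched. Arc had 10 sites, Fosb 7, Egr2 5, Egr1 4, Dusp1 4, Fos 3, Nr4a1 2 and Npas4 1, and Junb and Egr4 had none, against a median of 5 per gene over all genes. UTR lengths differ, and per kilobase Arc had 6 sites, Dusp1 5.80, Egr2 4.17, Fos and Nr4a1 3.68 each, Egr1 3.29, Fosb 3.04 and Npas4 1.40, against a median of 3.97 over all genes. The site shared by most of the 10 was that of miR-329-3p, in Fosb, Arc, Egr1 and Nr4a1 and in 16.9% of genes. Its sequence (chr12:109713541-109713562, plus strand, RefSeq, GRCm38.p6) is shown with the seed in capitals.
mmu-miR-329-3p: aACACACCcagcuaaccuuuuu

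The genes with this match had log2 fold changes of -0.12 (Fosb), 0.08 (Arc), -0.25 (Egr1) and -0.01 (Nr4a1). Those with no match of the seeds searched had -0.03 (Junb) and -0.22 (Egr4). The genes with matches of other seeds only had -0.41 (Egr2), -0.13 (Npas4), -0.09 (Fos) and 0.07 (Dusp1). None of these fold changes passed the edgeR adjusted threshold, and the part of the matches in them was not tested. A match is a description of the sequence, and binding was not measured.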

How the data were processed

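The authors deposited a single table of expected counts (estimated read counts), with a column for each of the 12 animals and no scaling applied. Salmon 1.3.0 and the build GRCm38 were used, per the submitters' processing notes. Per the labels' protocols, Trizol-chloroform extraction was followed by a NEB library kit. The annotation, strand setting and summing to genes are not stated. Values that were not whole (by more than 1e-06) made up 24.8% to 25.9% of a library, and all were rounded for the count models. No column was left out.

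Genotypes were compared with edgeR 4.0.16 in R 4.3.3, by the quasi-likelihood test with TMM scaling and genotype alone in the model. The filterByExpr filter used its minimum count of 10 and minimum total of 15. Benjamini-Hochberg adjustment ran over 19325 genes, at a threshold of 0.05. DESeq2 1.42.0, limma 3.58.1 (voom), other scalings and filters, a replicate block and leaving out each animal were alternatives. Levels are TMM-scaled CPM. Correlations used log2 CPM, computed after adding 2 prior counts. Permutation tests were run in numpy 2.4.6, with ranks for Spearman's rho from scipy 1.17.1. Exon lengths, overlaps and 3′ UTRs of at least 50 bases came from a GENCODE annotation of GRCm38, and promoter and miRNA sequences from RefSeq tables. The fit was tested on simulated data.

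Library totals of 42360558 to 51095758 counts set the counting error, which is largest for Egr2, with 52 counts in the shallowest case. Libraries of a genotype differed from each other by more than counting noise in every pair (lowest chi-square per degree of freedom 8.51). The labels number animals, so p-values reflect differences between animals.

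The members and lists were chosen with earlier results of these data known. Named genes were the 10 genes, Mirg, B830012L14Rik, Emx1, Ttr, up to 4 members of each related list with the smallest p, and the 10 genes most like and 5 least like the mean z-score. Btg2, Plk2, Csrnp1, Ier5, Jun, Spry2, Spry4, Nr4a3, Cacna1d, Crtc1, Mef2d, Fibcd1, Wfs1 and Dkk3 were named after their correlations with that score were seen. Egr3 was likewise named after its values were seen. List counts without cKO 1 and list correlations without cKO 5 and WT 1 were added after the data were seen. A single gene that this rule names is not reported here.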

Additional observations from a re-analysis of the deposited data

Results flagged for a closer look

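A single animal stood apart from the other 5 of its genotype in 15 of 106 groups examined. Chance flags about 1 in 20 groups, but several genes were chosen because they follow these animals and the genes are correlated, so the count cannot be read against that share. Each such animal's gap to its nearest neighbour took up more of the group's range than Dixon's 95% critical value allows. Among the 10 immediate early genes 5 of 20 groups were of this kind. WT 1 was high for Fos at 18.1 CPM, with the next WT animal at 10.6 CPM. It was also high for Egr2 at 4.01 CPM (next 2.60), Nr4a1 at 93.6 CPM (next 64.3) and Dusp1 at 18.7 CPM (next 13.9). For Dusp1, cKO 5 was high among cKO at 18.9 CPM (next 14.3).

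Among other genes, 1700016P03Rik was high in cKO 5 at 3.27 CPM (next cKO animal 1.56) and in WT 1 at 3.36 CPM (next WT animal 1.92). WT 1 was high for Ier2 at 5.52 CPM, Sik1 at 17.0 CPM and Rgs2 at 28.1 CPM. Timm21 was high in cKO 5 at 7.53 CPM, Fas was high in WT 4 at 1.54 CPM, and Sult1a1 was high in WT 6 at 12.6 CPM. The library labelled cKO 1 was low for B830012L14Rik at 0.788 CPM and high for Emx1 at 9.14 CPM.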

How the results depend on the processing

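None of the 10 genes was called under any of the 23 alternatives, which gave edgeR, DESeq2 or limma adjusted p-values of 0.301 or more. Over all genes, where the main count was 2, DESeq2 called 83 (24 higher and 59 lower in cKO), limma-voom 0 (1847 at an unadjusted p under 0.05), robust dispersion 0 (1811), no low-count filter 1 and a filter of 1 CPM in 6 libraries 1. Leaving out each animal gave 0 to 6, the 6 without cKO 1. Without cKO 4, WT 2 and WT 3 it was 0 (1457), and without cKO 5 and WT 1, chosen after the data were seen by their levels, 0 (2506). The 29 correlated pairs became 0 without the 2 farthest animals, 0 within cKO, 9 within WT, 0 without cKO 5 and WT 1 (11 at an unadjusted p under 0.05), and 9 to 36 when single animals were left out. Fewer animals, and a narrower range where the extreme ones were removed, are part of these settings. Signs turned without WT 1 for Fos (0.13), Junb (0.03), Npas4 (0.03) and Nr4a1 (0.11), without WT 2 for Junb (0.02), without WT 4 for Arc (-0.01) and without cKO 5 for Dusp1 (-0.04). Nr4a1, near 0, was at 0.005, 0.001 and 0.03 without cKO 2, 3 and 6, 0.003 with limma-voom and 0.05 without cKO 5 and WT 1. Junb was at 0.04 without cKO 4, WT 2 and WT 3, and 0.02 without cKO 5 and WT 1. The cause of these shifts was not tested. With a replicate block on animal number, 0 genes were called (1724 at an unadjusted p under 0.05) and Nr4a1 was at 0.004. Same-numbered animals share only a number: their correlations were 0.166, 0.0204, -0.313, -0.13, 0.195 and 0.328, and number 6 alone correlated best with its own number. Leaving out single animals gave ranges of -0.28 to 0.13 for Fos, -0.22 to -0.05 for Fosb, -0.11 to 0.03 for Junb, -0.01 to 0.22 for Arc, -0.32 to -0.17 for Egr1, -0.59 to -0.23 for Egr2, -0.27 to -0.16 for Egr4, -0.26 to 0.03 for Npas4, -0.09 to 0.11 for Nr4a1 and -0.04 to 0.18 for Dusp1. Egr2, at 52 to 197 counts, is the gene that depth limits most.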
